A study of Mus musculus with 2 samples.

Results

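The 45 genes described here are mouse genes known to be imprinted, taken as the rows of the gene table that carry their symbols. Of these, 44 had a row, Peg13 is not analysed here, and 40 reached 1 FPKM or more in at least 1 library and are called measured. The whole table held 43437 genes, of which 14987 were measured by the same limit. FPKM scales a gene's fragments by its transcript's length and by sequencing depth, so levels can be set side by side between genes. Polyadenylated RNA came from fetuses of the outbred ICR stock at E12.5, wild type and without treatment. The group called whole body and the group called telencephalon, the embryonic forebrain from which cortex and basal ganglia form, have 1 library each. Sex and number of the fetuses are missing from the labels, which also do not say whether the whole body included the head, which would then hold the telencephalon too. There is no replicate check of any difference below, and no test was made.

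An imprinted gene is transcribed mainly from the copy inherited from one parent. For most such genes, though not all, the choice is laid down as DNA methylation in the germ line and is kept in the embryo by ZFP57, TRIM28 and DNMT1. Many imprinted genes lie in clusters around a long non-coding RNA, and many act on fetal growth, with paternally expressed genes often promoting it and maternally expressed genes often restraining it. Several are also expressed in the brain, where a few of them are imprinted only in neurons. FPKM adds up both copies, so the parental allele named below is textbook knowledge and was not measured. In RNA from whole tissue, fewer cells that express a gene and less of its RNA per cell cannot be told apart.

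Differences are log2 ratios of telencephalon to whole body after 1 was added to each FPKM value, and a gene is counted as higher or lower past 2-fold on that scale. Of the 40 measured imprinted genes, 9 (22.5%) were higher in telencephalon, where 9.39% of all measured genes were. Another 20 (50%) were lower, against 21.2% of all measured genes, and 11 were within 2-fold. Their median log2 ratio was -0.95, and that of all measured genes was -0.16. So these 40 genes spread to both sides, from -6.24 for Igf2 to 2.60 for Nnat. Within 2-fold stayed 27.5% of them, against 69.5% of all measured genes. This describes the listed genes only, which were chosen with earlier results of these data known. On a further list of imprinted genes, described below, 75.8% of the measured genes stayed within 2-fold. Of the genes counted as lower, Rtl1, Phlda2, Slc22a18, Zim1 and Slc38a4 reached 1 FPKM in whole body only. The measured imprinted genes made up 2.08% of the summed FPKM of the whole-body library and 1.12% of the telencephalon library. Without Igf2 and H19 these shares were 1.17% and 1.1%. The whole-body sum of 502131 FPKM includes 19349 and 17979 FPKM of 2 very short gene models inside H19, both at 0 in telencephalon. Their values are uncertain, as described below, and they lower every whole-body share.

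**Figure D1:**
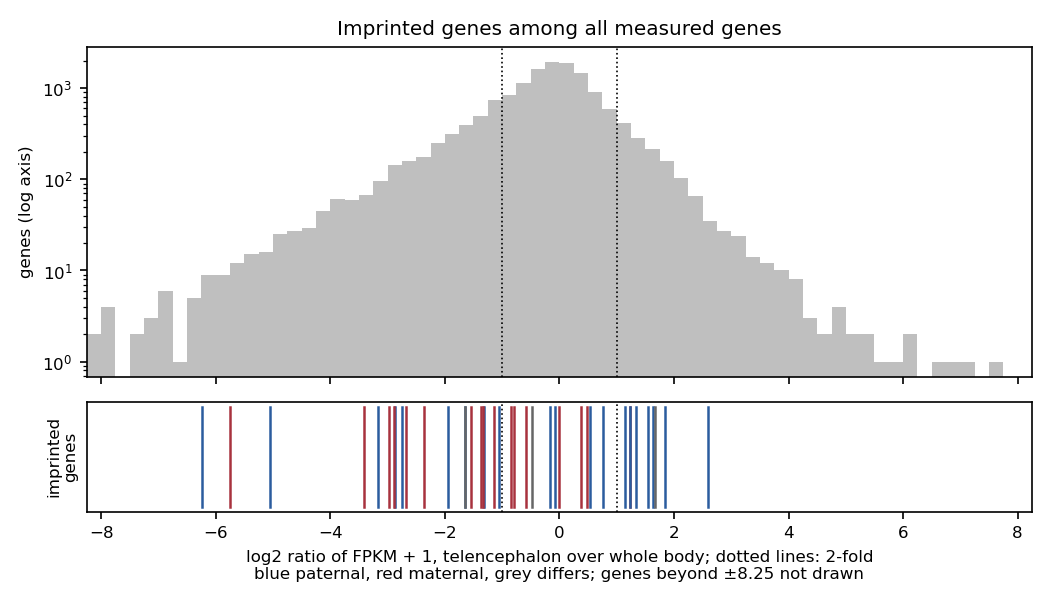
Histogram of the log2 ratio (FPKM + 1, telencephalon over whole body) of all 14987 measured genes, with the number of genes on a log axis, above a strip with 1 line for each of the 40 measured imprinted genes, blue where the paternal copy is known to be expressed, red where the maternal copy is, and grey where it differs by transcript or tissue. The lines run from -6.24 to 2.60, with 20 left of the dotted 2-fold limit and 9 right of the other. Red includes genes known to be imprinted in neural tissue or placenta only.

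The 2 libraries carried the markers of their labels. The neural progenitor markers were higher in telencephalon in 6 of 6 genes, and their summed level went from 126 to 567 FPKM. The neuronal markers were higher in 5 of 5, with sums of 189 and 814 FPKM. Mesenchymal markers were lower in 6 of 6 genes (1655 and 13.8 FPKM summed), liver markers in 6 of 6 (2081 and 5.1), muscle markers in 5 of 5 (611 and 2.33) and endothelial markers in 6 of 6 (109 and 27.1). Among the blood markers 3 of 5 were lower, with sums of 4429 and 2597 FPKM, most of it embryonic globin in both libraries. Of the liver markers, Apoa2 was listed at 0 in telencephalon. The markers differed between the same 2 libraries as the imprinted genes described below, and the part of cell types in those differences was not tested.

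**Figure D2:**
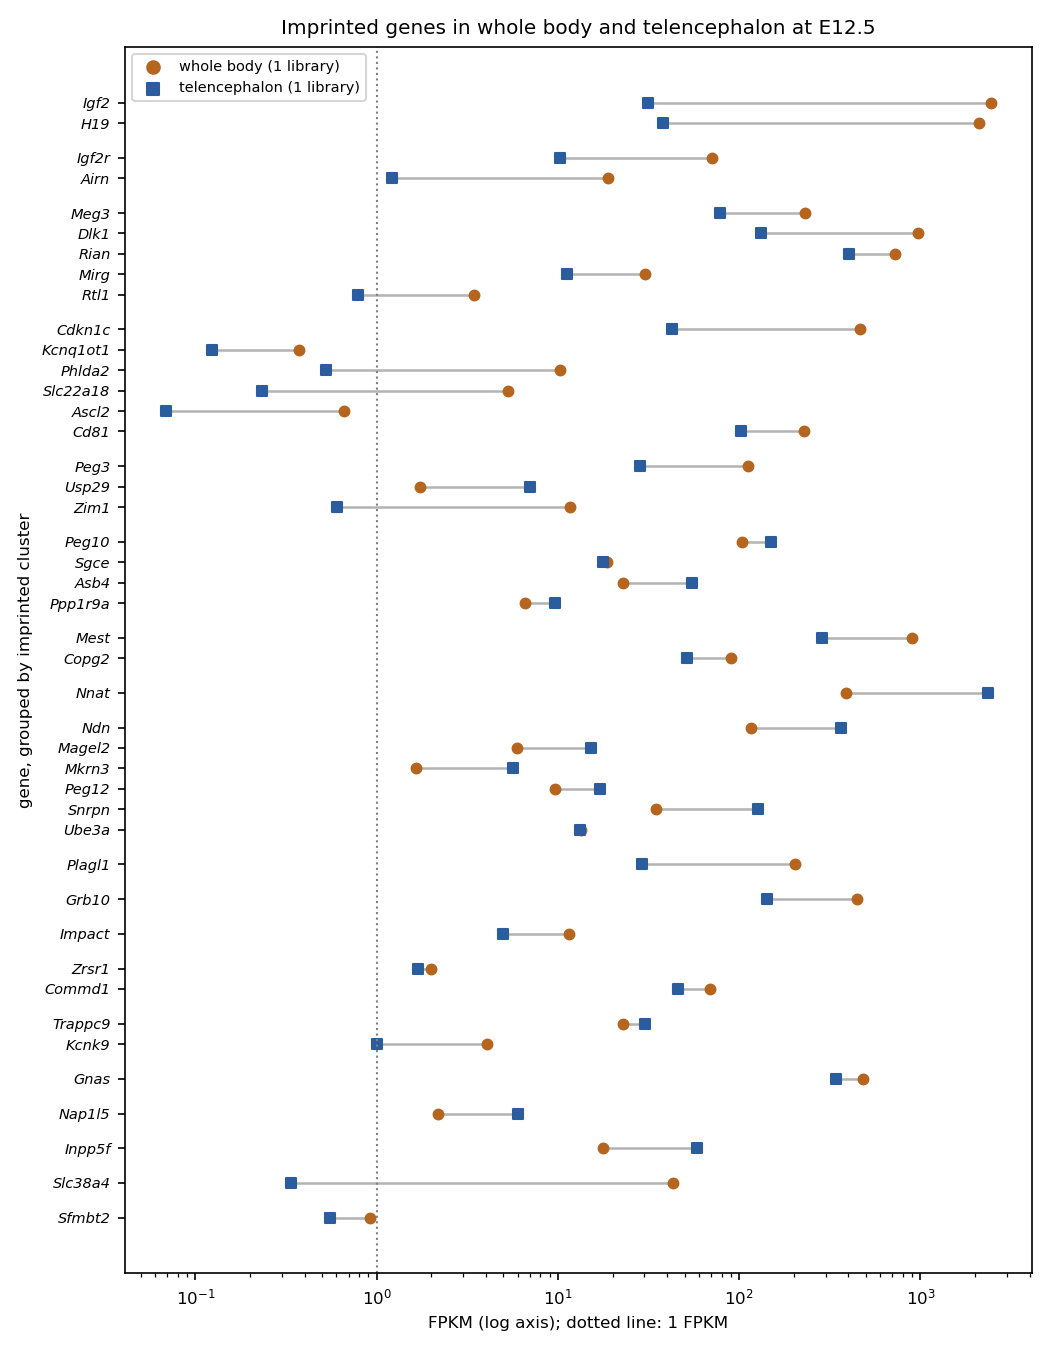
FPKM (log axis) of each imprinted gene above 0 in the whole-body library (brown circles) and the telencephalon library (blue squares), joined by a line and grouped by cluster, with a dotted line at 1 FPKM. The longest lines to the left are those of Slc38a4, Igf2 and H19, while the genes from Ndn to Snrpn and Nnat lie to the right in telencephalon, Nnat from 386 to 2344 FPKM.

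Igf2, H19, Igf2r and Airn were all lower in telencephalon. The cluster of Igf2 and H19 lies at chr7:142575529-142666816 in GRCm38. Igf2, the main growth factor of the fetus, is paternally expressed and had 2442 FPKM in whole body against 31.4 in telencephalon, a log2 ratio of -6.24. It held rank 11 of all genes in whole body and rank 2799 in telencephalon. H19, the maternally expressed long non-coding RNA that shares the enhancers of Igf2, stood at 2107 and 38.1 FPKM, a log2 ratio of -5.75. The 2 genes thus lay at similar levels in each library, although they are read from opposite parental copies. Igf2os, an antisense RNA at Igf2, stood at 8.27 and 0.267 FPKM. Igf2r, the maternally expressed receptor that binds IGF2 and delivers it to the lysosome, had 71.1 and 10.3 FPKM, 6.89-fold less in telencephalon. Airn, the paternally expressed antisense RNA whose transcription keeps the paternal Igf2r copy silent, had 18.9 and 1.21 FPKM. These values of Airn correspond to about 405 and 25 fragments, and the counting interval of the ratio runs from 8.39-fold to 19.6-fold lower. The span of Airn overlaps that of Igf2r on the opposite strand, and the library kit keeps no record of strand. Unspliced fragments of Igf2r cannot be told apart from Airn there, so the difference in Airn is uncertain. Airn is known to be silent in neurons, where both copies of Igf2r are used. Whether this has a part in the levels here was not tested.

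H19 is also the precursor of miR-675, whose 2 mature forms are shown because they are the small RNA product of the second most abundant of the imprinted genes in whole body. Capitals mark the seed, bases 2 to 8, and the sequences are those of RefSeq on GRCm38.p6.
mmu-miR-675-5p: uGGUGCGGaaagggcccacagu
mmu-miR-675-3p: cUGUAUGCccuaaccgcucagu
The 2 forms do not share a seed. The 84-base hairpin gene Mir675 was listed at 0 in both libraries, and mature miRNAs, which carry no poly(A) tail, are not captured by this kind of library. On the opposite strand inside H19 the table has 2 very short gene models, Gm27786 of 70 bases and Gm27483 of 71 bases. They were listed at 19349 and 17979 FPKM in whole body, ranks 2 and 3 of all genes, and at 0 in telencephalon. The library kit keeps no record of strand, so fragments of H19 and of these models cannot be told apart, and their values are uncertain.

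The cluster of Dlk1 and Meg3 on chromosome 12 (chr12:109452823-109749460) was lower in telencephalon in 4 of its 5 measured genes, with a median of -1.37. Among all measured genes, 21.2% were lower. Dlk1, a paternally expressed transmembrane protein of the Delta and Notch type that holds back differentiation, had 972 FPKM in whole body and 132 in telencephalon, a log2 ratio of -2.87. Rtl1, a paternally expressed gene derived from a retrotransposon and needed in placental vessels, had 3.46 and 0.788 FPKM, a log2 ratio of -1.32. The maternally expressed side of the cluster is a row of non-coding RNAs. Meg3 had 232 and 78.7 FPKM, a log2 ratio of -1.55. Rian, which carries small nucleolar RNAs in its introns, had 727 and 404 FPKM and stayed within 2-fold at -0.84. Mirg, which carries 14 of the miRNA hairpins of the region, had 30.4 and 11.2 FPKM, a log2 ratio of -1.37. Within the cluster the paternally expressed Dlk1 therefore lay further below whole body than each of the 3 non-coding RNAs. Dlk1 was the more abundant of the pair of Dlk1 and Rian in whole body, and Rian was in telencephalon.

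The size of the Meg3 difference depended on which isoform its fragments were assigned to. Meg3-204, an isoform of 695 bases, took 47.2% of the summed isoform FPKM of Meg3 in whole body and 13% in telencephalon, 110 and 10.2 FPKM. A short isoform is worth more FPKM per fragment. In estimated fragments, about 8641 and 3468, Meg3 was lower by a ratio with a counting interval of 1.86 to 2.01, against 2.95-fold in FPKM. Meg3 therefore lies at the 2-fold limit by one measure and beyond it by the other. Dlk1 also differed in its isoforms: Dlk1-205 took 68.7% of the gene in whole body and 46% in telencephalon.

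In the cluster silenced by Kcnq1ot1 (chr7:142966829-143503150) all 4 measured members, which are maternally expressed, were lower in telencephalon, with log2 ratios from -3.41 to -1.15. By the same limit 21.2% of all measured genes were lower. Other genes of the span, from the further imprinted list below, were not all lower. Tspan32 was at -3.40, but Tssc4 was within 2-fold at 0.31, as was Kcnq1 at 0.27 without a short isoform. Cdkn1c, an inhibitor of cyclin-dependent kinases that takes cells out of the cycle, had 462 FPKM in whole body against 42.5 in telencephalon, 10.9-fold less. Phlda2, which restrains growth of the placenta, had 10.3 and 0.522 FPKM. That is about 131 and 5 fragments, and the counting interval of its ratio is wide, from 8.49-fold to 63.6-fold lower. Slc22a18, a membrane transporter, had 5.31 and 0.232 FPKM, a log2 ratio of -2.36. Cd81, a tetraspanin known to be imprinted in the placenta only, had 227 and 102 FPKM and was the nearest to whole body of the 4 genes. Kcnq1ot1 itself, the paternally expressed RNA that silences these genes on the same chromosome, was under 1 FPKM in both libraries, at 0.371 and 0.124. It is annotated as a single exon of 93092 bases, so these low levels still stand for about 1012 and 262 fragments. In that measure the row of the silencing RNA too was lower in telencephalon, 3-fold, with a counting interval of 2.61 to 3.44. The gene Kcnq1 spans this exon on the opposite strand. Without strand, unspliced fragments of Kcnq1 cannot be told apart from Kcnq1ot1, so this difference is uncertain. Ascl2, a transcription factor of the trophoblast, had 0.664 and 0.0691 FPKM, about 10 fragments and 1 fragment. Of 6 trophoblast markers none reached 1 FPKM in either library, and Prl3d1, Prl3b1, Prl2c2 and Tpbpa were listed at 0 in both.

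Part of the Cdkn1c locus is annotated on both strands. Of its 2039 exon bases, 30.7% are shared with Gm44732 on the opposite strand, and fragments from there cannot be told apart. Sfmbt2, a Polycomb protein gene imprinted in the placenta, had 0.918 FPKM in whole body and 0.551 in telencephalon and did not reach the limit. Ppp1r9a, like Cd81 and Ascl2 another gene of the placental group, encodes the actin-binding protein neurabin. It had 6.62 and 9.65 FPKM, within 2-fold at 0.48.

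The genes at the Peg3 locus (chr7:6671269-6967219) did not move together. Peg3, a paternally expressed zinc finger protein known for its part in fetal growth and maternal behaviour, had 112 FPKM in whole body and 28.4 in telencephalon, a log2 ratio of -1.94. Usp29, a paternally expressed gene of the deubiquitinase family that starts next to Peg3 and runs the other way, had 1.73 and 6.97 FPKM, a log2 ratio of 1.55. It rests on about 116 and 362 fragments, and the counting interval of its ratio is 3.26-fold to 5-fold higher. Zim1, the maternally expressed zinc finger gene downstream of Peg3, had 11.6 and 0.603 FPKM, 19.3-fold less in telencephalon. So the pair that is read from the same parental copy and from neighbouring starts lay on opposite sides of whole body. Of the Usp29 exon bases in the annotation, 14.3% are shared with Zim3 on the opposite strand.

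The stretch between the starts of Peg3 and Usp29 is shown because both genes have a start in it and differed in opposite directions. Their RefSeq promoter windows on GRCm38.p6 share 263 bases, chr7:6730370-6730632, printed here on the strand of Peg3. Capitals mark the 163 bases between the start of Usp29 at 6730583 and that of Peg3 at 6730419.
Peg3 and Usp29: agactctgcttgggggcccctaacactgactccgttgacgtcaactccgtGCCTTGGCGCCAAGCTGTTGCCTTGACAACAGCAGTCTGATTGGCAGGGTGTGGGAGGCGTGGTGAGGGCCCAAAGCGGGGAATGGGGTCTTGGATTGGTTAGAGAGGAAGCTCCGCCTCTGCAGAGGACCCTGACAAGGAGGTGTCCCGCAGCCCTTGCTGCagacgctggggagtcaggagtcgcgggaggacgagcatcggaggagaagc
The level of Usp29 was given on 1 isoform, and how much of its transcription begins in this stretch was not tested.

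The paternally expressed Plagl1, Mest, Slc38a4 and Impact were lower in telencephalon as well, and so was Grb10, whose expressed copy differs by tissue. Plagl1, a zinc finger transcription factor that limits proliferation and is known to act on other imprinted genes, had 202 FPKM in whole body and 29.2 in telencephalon, a log2 ratio of -2.75. Mest, a protein of the hydrolase fold expressed in mesoderm, had 897 and 287 FPKM and was still at rank 146 of all genes in telencephalon. Slc38a4, an amino acid transporter of liver and placenta, had 43.1 and 0.335 FPKM, about 3219 and 18 fragments. Its ratio was 129-fold, with a counting interval of 87.6-fold to 234-fold lower, and none of the other measured members had a higher fold of FPKM. Impact, a regulator of translation, had 11.5 and 4.99 FPKM, a log2 ratio of -1.06 just past the limit. Grb10, an adaptor that dampens insulin and growth factor receptors, is maternally expressed in most tissues and paternally expressed in neurons. It had 449 and 143 FPKM, a log2 ratio of -1.65.

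The promoter window of Plagl1 is shown because it holds the letters TGCCGC, the core bound by the imprint guardian ZFP57, read as GCGGCA on the printed strand. Capitals mark the match in chr10:13090582-13090881 on the plus strand.
Plagl1: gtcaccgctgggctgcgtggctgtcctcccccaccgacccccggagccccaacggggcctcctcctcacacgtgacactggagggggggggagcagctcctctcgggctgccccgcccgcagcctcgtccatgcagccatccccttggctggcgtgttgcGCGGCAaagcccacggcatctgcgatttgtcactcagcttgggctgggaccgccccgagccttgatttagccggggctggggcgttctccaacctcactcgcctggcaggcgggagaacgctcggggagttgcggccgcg
Such a match describes the letters only and says nothing of binding in these tissues.

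The genes of the Prader-Willi and Angelman region on chromosome 7 (chr7:59228750-62464510) were higher in telencephalon or stayed near whole body, and none was lower past 2-fold. Of 6 measured, 4 were higher, against 9.39% of all measured genes, with a median of 1.28. Snrpn, which encodes the SmN splicing protein of neurons, had 34.8 FPKM in whole body and 127 in telencephalon, a log2 ratio of 1.84. Ndn, a MAGE protein that promotes neuronal differentiation and survival, had 116 and 363 FPKM, a log2 ratio of 1.63, and reached rank 109 of all genes in telencephalon. Magel2, a related MAGE protein of endosomal sorting, had 5.92 and 15.2 FPKM. Mkrn3, a makorin ring finger protein known from the control of puberty, had 1.64 and 5.62 FPKM, about 107 and 283 fragments. Peg12, a member of the Frat family that acts on Wnt signalling, had 9.61 and 17 FPKM and stayed within 2-fold at 0.76. All 5 of these are paternally expressed, and all lay above whole body.

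Ube3a, the ubiquitin ligase of the same region that is maternally expressed in neurons, had 13.4 FPKM in whole body and 13.3 in telencephalon, a log2 ratio of -0.01 that turned positive on other scalings. The antisense transcript Snhg14, known to silence the paternal Ube3a copy in neurons, had 3.12 and 8.48 FPKM. It shares 8.74% of the Ube3a exon bases of the annotation, and the kit cannot separate the strands there. Snurf, a short protein encoded at the start of the Snrpn transcript, was at effectively 0 in both libraries. All of its 216 exon bases are also Snrpn exon bases, and the value of 0 therefore cannot be read as absence of this transcript.

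The promoter window that Snrpn and Snurf share lies at the imprinting centre of the region and is shown with its ZFP57 core match in capitals, on the minus strand of chr7:60005150-60005449.
Snurf: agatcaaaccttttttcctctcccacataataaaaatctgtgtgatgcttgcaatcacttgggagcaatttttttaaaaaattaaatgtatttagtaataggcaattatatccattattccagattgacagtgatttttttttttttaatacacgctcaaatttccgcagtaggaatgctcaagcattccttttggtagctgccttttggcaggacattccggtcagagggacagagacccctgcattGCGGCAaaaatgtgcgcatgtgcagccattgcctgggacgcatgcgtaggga
The 2 isoforms of Snrpn with values were both higher in telencephalon. The isoform Snrpn-201 had 29.4 and 104 FPKM, and the isoform from a start further upstream had 5.39 and 23.6.

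Nnat had the largest log2 ratio of the 40 measured imprinted genes. This paternally expressed gene encodes neuronatin, a small membrane protein of the endoplasmic reticulum in neural and endocrine cells, and lies within the gene Blcap on chromosome 2 (chr2:157560078-157562522). It had 386 FPKM in whole body and 2344 in telencephalon, a log2 ratio of 2.60, and moved from rank 115 to rank 12 of all genes. Its share of the summed FPKM went from 0.0769% to 0.523%. In estimated fragments the counting interval of its ratio was 4.6-fold to 4.83-fold higher, against 6.07-fold in FPKM. Nnat-206, an isoform of 404 bases, took 17.7% of the gene in whole body and 35.5% in telencephalon. Blcap, the host gene, had 37.4 and 95.2 FPKM, a log2 ratio of 1.33, so gene and host were both higher. The Nnat promoter window is shown, as that of the gene with the largest excess in telencephalon, on the plus strand of chr2:157559828-157560127. Capitals mark the ZFP57 core match.
Nnat: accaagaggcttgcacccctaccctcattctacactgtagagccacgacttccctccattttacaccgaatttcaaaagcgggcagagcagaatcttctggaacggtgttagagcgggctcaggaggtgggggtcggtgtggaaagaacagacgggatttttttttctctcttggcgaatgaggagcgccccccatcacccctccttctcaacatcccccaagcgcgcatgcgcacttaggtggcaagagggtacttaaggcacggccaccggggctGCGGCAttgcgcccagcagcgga
The match in Nnat lies near the end of the window, as the match in Snurf does.

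The cluster of Peg10 and Sgce on chromosome 6 (chr6:4674350-5433022) was within 2-fold of whole body in 3 of 4 measured genes. So were 69.5% of all measured genes. Peg10, a paternally expressed gene derived from a retrotransposon and needed in the placenta, had 103 FPKM in whole body and 150 in telencephalon, a log2 ratio of 0.54. Sgce, the paternally expressed epsilon-sarcoglycan gene, had 18.7 and 17.8 FPKM, and its log2 ratio of -0.07 turned positive when values were rescaled to TPM. Asb4, a maternally expressed part of ubiquitin ligases, had 22.8 and 55.1 FPKM, a log2 ratio of 1.24. It was the single maternally expressed gene among the 9 that were higher. Sgce and Ppp1r9a kept their levels within 2-fold while their isoforms differed. Sgce-202 took 19% of Sgce in whole body and 49.6% in telencephalon, and Ppp1r9a-201 took 55.8% and 78.8% of Ppp1r9a.

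Of the imprinted genes that arose by retroposition into a host gene, Nap1l5, a nucleosome assembly protein gene that is paternally expressed, had 2.17 FPKM in whole body and 6.04 in telencephalon, a log2 ratio of 1.15. It rests on about 97 and 208 fragments, and the counting interval of its ratio is 2.16-fold to 3.56-fold higher. Zrsr1, a paternally expressed copy of a splicing factor gene that lies inside Commd1, had 1.99 and 1.68 FPKM, within 2-fold at -0.16. Of the Zrsr1 exon bases 9.17% are shared with Commd1 on the opposite strand.

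For Inpp5f and Gnas the imprinting depends on the promoter, and their isoforms differed by start. Inpp5f, a phosphoinositide phosphatase gene, had 17.7 FPKM in whole body and 58.5 in telencephalon, a log2 ratio of 1.67. Its full-length isoform Inpp5f-201 was at 4.93 and 5.28 FPKM, nearly level. The isoforms Inpp5f-203 and Inpp5f-208, which start in the intron after exon 15 of 20, were at 10.6 and 42.9 FPKM together, 4.06-fold more in telencephalon. A paternally expressed brain transcript is known to arise from within this gene. Inpp5f-203 alone took 28.7% of the gene in whole body and 50.4% in telencephalon, and the remaining isoforms went from 2.26 to 10.3 FPKM. The higher gene level thus lay outside the full-length isoform.

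Gnas encodes the stimulatory G protein alpha subunit and, from further upstream, the proteins Nesp, read from the maternal copy, and XLas, read from the paternal copy. As a whole it had 480 FPKM in whole body and 344 in telencephalon, a log2 ratio of -0.48, while its upstream starts differed far more. The 5 isoforms with the most upstream starts (174284320 to 174285358 on chromosome 2) had 28.7 and 2.16 FPKM, 13.3-fold less in telencephalon. The 5 isoforms starting at 174297859 had 8.61 and 1.15 FPKM, 7.51-fold less. The 6 isoforms with starts from 174327570 to 174328023 had 372 and 305 FPKM, and they made up 77.5% and 88.6% of the gene. Most of that lay in Gnas-218, an isoform of 607 bases with 72.9% and 84.3% of the gene. Gnas-218 is annotated as a processed transcript and not as protein-coding, so its share cannot be read as the level of the G protein's mRNA. Its span overlaps those of protein-coding isoforms of the gene, and how fragments were divided between them was not tested. The 6 isoforms starting from 174330006 on had 70.7 and 35.9 FPKM, just under 2-fold less.

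The opposite strand of Gnas carries Gm20721, a gene model that shares 99% of its 1484 exon bases with Gnas. It had 718 FPKM in whole body against 461 in telencephalon, more than Gnas itself in both. The sum of both genes was 1198 and 805 FPKM, 1.49-fold less in telencephalon. Fragments of the 2 models cannot be told apart without strand, so the level of Gnas is uncertain while its ratio was similar with and without Gm20721.

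**Figure D3:**
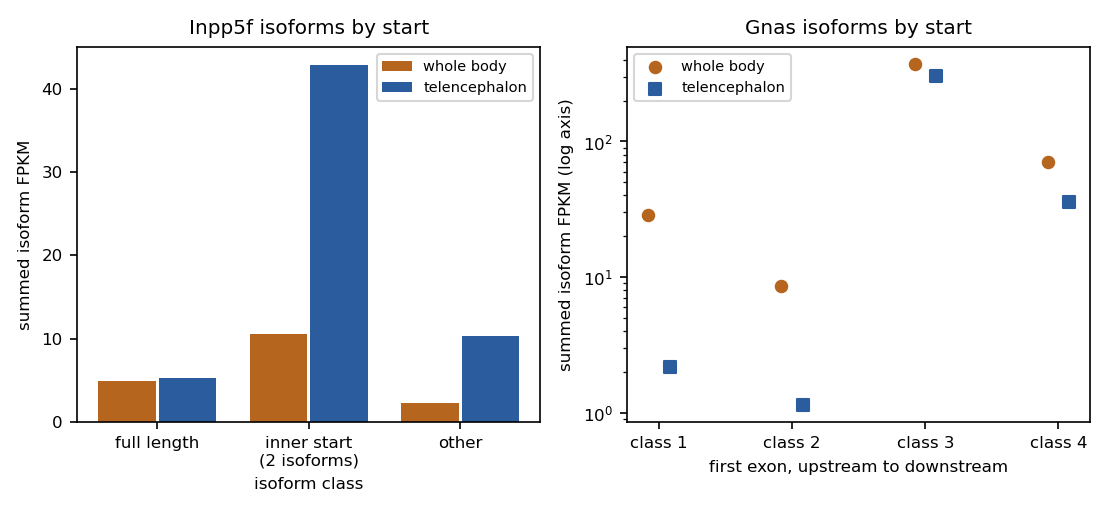
Summed FPKM of isoforms grouped by start in the whole-body library (brown) and the telencephalon library (blue), on a linear axis for Inpp5f and a log axis for Gnas, whose classes 1 to 4 run from the most upstream to the most downstream starts. Full-length Inpp5f is level at 4.93 and 5.28 FPKM while the isoforms with an inner start go from 10.6 to 42.9, and Gnas class 1 goes from 28.7 to 2.16.

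Of the 5 measured genes that are maternally expressed in neural tissue only, 4 were within 2-fold, and so were 69.5% of all measured genes. Copg2, a coatomer subunit that overlaps Mest tail to tail, had 89.7 FPKM in whole body and 51.5 in telencephalon, a log2 ratio of -0.79. The pair shares 912 exon bases on opposite strands, 17.8% of those of Copg2 and 23.1% of those of Mest. Commd1, a protein of copper transport and endosomal sorting, had 69.3 and 46 FPKM, a log2 ratio of -0.58. Its isoform Commd1-202 took 7.11% and 32% of the gene. Trappc9, a subunit of a vesicle tethering complex, had 22.9 and 30.2 FPKM, a log2 ratio of 0.38. Kcnk9, a background potassium channel, was lower, with 4.07 and 1.01 FPKM, a log2 ratio of -1.34. The group held Ube3a as well, at -0.01.

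Sorted by the parental copy known to be expressed, the 20 measured paternally expressed genes split to both sides. Of these, 7 (35%) were higher, 9 (45%) lower and 4 (20%) within 2-fold, with a median log2 ratio of -0.11. The 17 measured maternally expressed genes had 1 (5.88%) higher, 10 (58.8%) lower and 6 (35.3%) within 2-fold, with a median of -1.34. Of all measured genes, 9.39% were higher, 21.2% lower and 69.5% within 2-fold. Among the 10 maternally expressed genes that are imprinted in many tissues, 8 were lower and the median was -2.51. The rest are known to be imprinted in neural tissue only (5 genes) or in the placenta only (Cd81 and Ppp1r9a). Both copies of these may be read in much of the tissue used here, which was not measured. These lists were made with the earlier results known and members of 1 cluster share regulation, so the counts describe the genes named and the difference between the groups was not tested. The 7 higher paternally expressed genes were Nnat, Snrpn, Ndn, Usp29, Mkrn3, Magel2 and Nap1l5, of which 4 come from the Prader-Willi region. The median of the paternally expressed genes changed sign, to 0.24, when genes had to reach 5 FPKM.

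**Figure D4:**
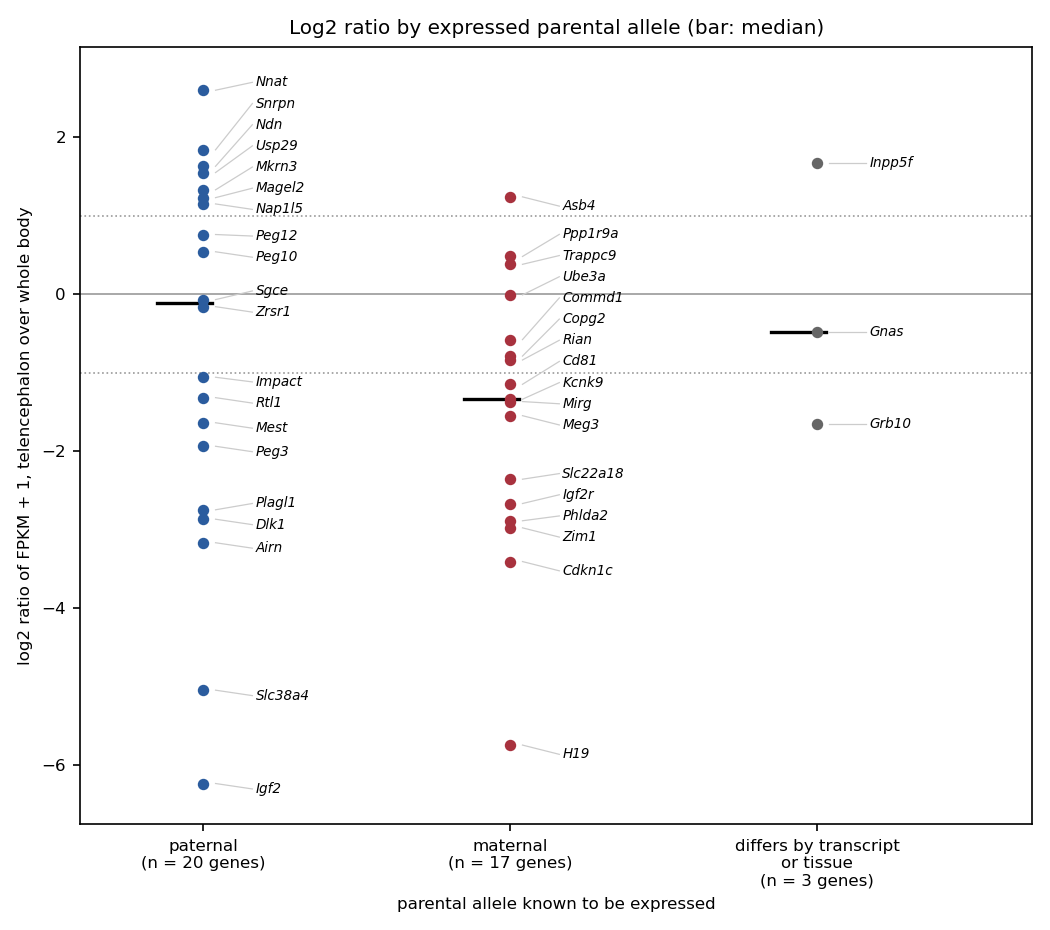
Log2 ratio (FPKM + 1, telencephalon over whole body) of the 40 measured imprinted genes by the parental copy known to be expressed, with 1 labelled point for each gene, a bar at the median of each group and dotted lines at 2-fold. The 20 paternally expressed genes lie on both sides of 0 with a median of -0.11, and the 17 maternally expressed genes lie mostly below it with a median of -1.34. The maternal group includes genes known to be imprinted in neural tissue or placenta only.

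The non-coding members with a measured level, H19, Airn, Meg3, Rian and Mirg, were lower in 4 of 5 cases, and Rian lay within 2-fold. Their summed level was 3115 FPKM in whole body against 533 in telencephalon. The 35 measured protein-coding members had 9 (25.7%) higher and 16 (45.7%) lower, with a median of -0.58. Over all measured genes, 9.39% were higher and 21.2% lower. Of all telencephalon FPKM in the members, Nnat alone held 2344 of 5011, and of all whole-body FPKM in them, 10443, Igf2 and H19 held 4550. The most abundant imprinted gene of each library was thus Igf2 in one and Nnat in the other.

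Genes beside the clusters were set next to the members. On the 38 cluster sides, the nearest measured protein-coding genes that are neither members nor on the further list of imprinted genes below were 37 genes. Of them 3 were higher, 7 lower and 27 within 2-fold, where 9.39%, 21.2% and 69.5% of all measured genes were. Their median log2 ratio was -0.26, nearer to that of all genes than to that of the members. Pdk4 beside Asb4 was higher at 2.30, and Vstm2a, the neighbour of Grb10 at a distance of 4219 kb, at 1.82. The neighbours that were lower were Trpm5, Plg, B3gnt2, Npepl1, Abcg2, Bag3 and Itih5, of which Trpm5, counted for Igf2 and H19, lies within the span of the Kcnq1ot1 cluster. Plg, the plasminogen gene of the liver next to Igf2r and Airn, stood out with 29.7 FPKM in whole body and 0.0908 in telencephalon. Bag3 beside Inpp5f was lower at -2.69, while Inpp5f was higher, and Mcmbp on its other side was level at 0.09.

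A further list of 49 genes reported as imprinted that are not among the 45 had 44 rows under the symbols listed and 33 measured genes. Of these, 2 (6.06%) were higher, 6 (18.2%) lower and 25 (75.8%) within 2-fold. The shares of all measured genes were 9.39%, 21.2% and 69.5%, so the list lay near them. Its median was -0.17, close to that of all measured genes. Its largest log2 ratios were those of Kcnq1 (3.77), Blcap (1.33) and Ano1 (0.83). Kcnq1, the potassium channel gene that Kcnq1ot1 runs through, went from 0.767 to 23.1 FPKM, but 22 of the latter came from an isoform of 282 bases. Without that isoform it stood at 1.13 FPKM in telencephalon, a log2 ratio of 0.27. The smallest ratios were those of Dcn (-5.43), Tspan32 (-3.40) and Gatm (-1.64), and Dcn is also one of the mesenchymal markers above.

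The genes of a list around imprint maintenance, which also holds Tet and Polycomb genes, were near level between the libraries. Of 22 listed, 20 were measured, and all 20 lay within 2-fold, as 69.5% of all measured genes did, with a median of 0.02. Zfp57, which recognises methylated imprinting control regions, had 26.3 FPKM in whole body against 45.7 in telencephalon, the largest log2 ratio of the list at 0.77. Ezh2, the Polycomb methyltransferase, followed with 0.68. The smallest were those of the DNA methyltransferases Dnmt3b, with 4.59 and 2.37 FPKM (-0.73), and Dnmt3a, with 56.4 and 45.5 FPKM (-0.30).

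The promoter windows of the imprinted genes were described by their letters. RefSeq windows on GRCm38.p6, from 250 bases before to 50 after a start, were found for 36 of the 45 genes, 55 windows in all. The genes without a window were Impact, Peg10, Rtl1, H19, Kcnk9, Cdkn1c, Trappc9, Peg13 and Sgce. The ZFP57 core TGCCGC, or GCGGCA on the other strand, was in 13 of the 55 windows (23.6%), against 11.6% of the 32851 windows of all genes. Some windows overlap or are shared, as those of Snrpn and Snurf and a pair of Mest are. The 12 genes with a match were Commd1, Copg2, Grb10, Igf2, Meg3, Mest, Nap1l5, Nnat, Plagl1, Snrpn, Snurf and Zim1, and they include genes that were higher, lower and level in telencephalon. The YY1 core GCCATNTT, or AANATGGC on the other strand, was in 4 windows (7.27%), against 6.05% of all windows. The YY1 matches were in Mkrn3, Sfmbt2, Slc38a4 and Ube3a. The median ratio of observed to expected CpG was 0.591 in these windows and 0.384 in all. The core TGCCGC itself contains a CpG, and the relation between the 2 measures was not tested.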

How the data were processed

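Total RNA from 1 whole-body and 1 telencephalon sample was extracted with a column kit and prepared with a TruSeq v2 kit, an unstranded kit for polyadenylated RNA, per the labels' protocols. The authors deposited FPKM values per gene and per isoform. TopHat, Cufflinks and Cuffdiff were used on GRCm38, per the submitters' processing notes. Versions and annotation release are not given in the sources used here.

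The log2 ratio of FPKM + 1 and the count past 2-fold among measured genes (1 FPKM or more in either library) were computed with Python 3.11.15 and pandas 2.3.3, with no test at 1 library per group. Of 43437 genes, 42276 matched GENCODE M21 by identifier, which gave coordinates and lengths. For a symbol on several rows (Rian, Rtl1, Snrpn) the row with more FPKM was used. Depth was estimated from the steps of low FPKM values of single-isoform genes: 29400000 and 22800000 fragments, with 91.3% and 89.5% of checked values whole within 0.1, where chance gives 20%. A fragment on a transcript of 2000 bases was worth 0.0203 and 0.0264 FPKM. Intervals of ratios are exact 95% binomial intervals of such fragment estimates scaled by depth, and cover counting error only.

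The members and lists were chosen with earlier results of these data known. By rule, all members are named, with the 3 largest and 3 smallest of the further imprinted genes, the 2 largest and 2 smallest of the imprint maintenance genes, flanking genes past 2-fold, and the 6 members whose isoform shares differed most among 24 with 5 FPKM or more in both libraries. Isoforms grouped by start, Nnat-206, Gnas-218, Mcmbp, Tssc4, overlapping gene models and printed windows were picked with their values in view. A flanking gene that the rule selects is not reported here. The counting was tested on simulated data. Alternatives were the pseudocount, the low-value filter, 2 other scalings, leaving out isoforms under 300 bases, and summing rows of a symbol.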

Additional observations from a re-analysis of the deposited data

How the results depend on the processing

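With a pseudocount of 5 FPKM, 5 imprinted genes were higher and 16 lower, with medians of -0.66 for all and -0.98 for the maternally expressed. Impact, Kcnk9, Magel2, Mkrn3, Nap1l5, Rtl1, Slc22a18 and Usp29 then came within 2-fold, and 5.34% of all measured genes were higher and 9.94% lower. With no filter on low values the median was -0.71. With a filter at 5 FPKM the median was -0.84 and that of the paternally expressed genes changed sign to 0.24. Rescaled to TPM, which moved the median of all genes from -0.16 to -0.02, 9 were higher and 19 lower of 42 measured, with medians of -0.83 for all and -1.13 for the maternally expressed. Of all genes measured on that scale, 12.7% were higher and 21.4% lower. The whole-body sum that TPM scales by includes the uncertain values of the short gene models inside H19. Cd81 at -0.99 and Impact at -0.97 came within 2-fold, Sgce turned to 0.09 and Ube3a to 0.15. Without the 10 members that share 5% or more of their exon bases with an opposite-strand gene, 7 of 30 were higher and 17 lower. The medians were -1.23 for all and -0.56 for the paternally expressed, and this alternative was chosen after seeing the data. The shares of all measured genes stayed at 9.39% higher and 21.2% lower. A pseudocount of 0.1, a common upper quartile, isoforms of 300 bases or more and summed rows each left 9 higher and 20 lower, with Ube3a at 0.05 under the upper quartile. Under these settings 9.18% to 11.8% of all measured genes were higher and 20.3% to 25.4% lower. No member changed from higher to lower or back under these alternatives. Where a setting moved a value, the cause was not tested. No paired analysis was possible because each group has 1 library. With about 5 fragments for Phlda2 in telencephalon, depth limits how closely its ratio is known. For Slc22a18, Mest and Peg10 some isoforms have no length in the annotation used, so no fragments are given.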
